A study of Mus musculus with 26 samples.

Results

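Monocytes sorted from the spleens of tumour-bearing KPC mice gave 7 of the 26 libraries of the study, picked by their titles (high_GS_treated and high_vehicle). The treated group held 4 libraries from KPC mice given GS9820 for 14 days, and the vehicle group held 3 libraries from KPC mice given vehicle control. The sample labels give no day for vehicle mice, while the design text speaks of 14 days for both. GS9820 blocks p110δ, a catalytic subunit of phosphoinositide 3-kinase (PI3K). KPC mice are an engineered model of pancreatic ductal adenocarcinoma. The labels spell out no alleles, no Cre driver, no age and no sex, and all mice carry the same strain label. They do not say what the word high stands for, or whether a library was made from 1 mouse or from pooled mice. If libraries of a group came from the same mice, the p-values below measure only the spread between these libraries. The study also held 7 libraries of polymorphonuclear cells (PMN, mainly neutrophils) from spleen and 12 of tumours, and the tumours were not used here.

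PI3K turns a membrane lipid into a docking signal for the kinase Akt, which feeds mTOR and holds FoxO transcription factors out of the nucleus. The p110δ subunit, encoded by Pik3cd, is found mostly in white blood cells, and lipid phosphatases such as SHIP1 (Inpp5d) remove the lipid signal. Classical monocytes arise from bone marrow precursors, carry Ly6C and the chemokine receptor CCR2, and use that receptor to leave the marrow. In tumour-bearing mice the spleen fills with such cells, many of them immature, and part of them can restrain T cells. The comparison asks what 14 days of p110δ inhibition did to transcripts of these cells. The files list 14131 genes on a log2 scale for each library, and 13968 were kept for the test (a value of at least 0 in at least 3 of the 14 sorted-cell libraries). The libraries share nearly the same distribution of values, so depth per library is unknown. Each difference below is a treated minus vehicle difference of mean deposited log2 values, in which 1 unit stands for a change by a factor of 2.

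The monocyte label was checked against its defining genes. Ccr2, the receptor that draws monocytes out of the marrow, had values of 11.35, 11.79, 11.49 and 11.46 in treated libraries, against 10.92, 10.54 and 11.99 in vehicle libraries. Ly6c2, which encodes Ly6C, had 11.44, 11.30, 11.16 and 10.81 in treated libraries, against 11.55, 11.49 and 11.55 in vehicle libraries. F13a1, the coagulation factor XIII subunit made by monocytes, had 10.93, 10.77, 9.56 and 9.69 in treated libraries, against 10.42, 9.34 and 11.29 in vehicle libraries. All 3 markers stood above every PMN library, which ran from 6.85 to 9.09 for Ccr2, 9.49 to 10.63 for Ly6c2 and 3.52 to 5.73 for F13a1. Treated and vehicle values overlapped for Ccr2 and F13a1, and for Ly6c2 all 4 treated values lay below all 3 vehicle values. None passed the test: the differences were 0.38 (95% interval -0.63 to 1.39), -0.35 (-0.91 to 0.20) and -0.11 (-1.30 to 1.08). Leaving out vehicle library 3, which stands apart in many genes as described below, gave 0.80 for Ccr2, -0.34 for Ly6c2 and 0.36 for F13a1. Over all single omissions of a library, Ccr2 ran from 0.07 to 0.80, Ly6c2 from -0.44 to -0.23 and F13a1 from -0.61 to 0.36. Other genes of classical monocytes were high in both groups, among them Chil3 (chitinase-like 3; 12.08 to 12.83 treated, 12.08 to 13.02 vehicle) and Fn1 (fibronectin; 11.00 to 11.90 treated, 10.36 to 11.90 vehicle), although Chil3 reached 12.56 in PMN too, while Fn1 reached 7.79 there.

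Genes listed as markers of other cells were present too, most of all those of the neutrophil lineage. The mean of 22 genes of granule proteins and their precursors (among them Mpo, Camp and Ngp) was 9.83, 9.37, 10.08 and 9.66 in treated libraries, against 10.32, 10.68 and 8.89 in vehicle libraries, where PMN ran from 8.38 to 9.37. Mpo ran from 9.0 to 11.29 in the monocyte libraries and from 2.72 to 6.33 in PMN. Camp ran from 11.34 to 13.02 against 11.85 to 12.76 in PMN, and Ngp from 12.4 to 13.68 against 13.44. The mean of 22 genes of mature neutrophils was 6.26, 4.85, 6.40 and 5.18 in treated libraries, against 7.42, 6.67 and 4.25 in vehicle libraries, below the PMN range of 9.01 to 9.86. In both lists vehicle library 3 stood below and vehicle libraries 1 and 2 above all 4 treated libraries. T cell genes averaged 1.29 to 3.11 in treated libraries, against 0.78 to 3.78 in vehicle libraries. Genes of NK and cytotoxic lymphocytes averaged 0.16 to 1.33 in treated libraries, against -0.25 to 2.55 in vehicle libraries, and erythroid genes 2.42 to 4.02 against 2.65 to 5.47. The median difference was -0.32 for 20 T cell genes, -0.60 for 16 NK genes and -0.81 for 15 erythroid genes. Of these genes 1, 0 and 1 had a difference above 0, and none passed the test. The medians were 0.45, 0.00 and -1.54 without vehicle library 1, and -1.07, -1.54 and 0.15 without vehicle library 2. Tumour epithelium had 3 of its 12 markers in the kept genes, with means of 0.17 to 0.56 in treated libraries and -0.38 to 1.08 in vehicle libraries. In bulk libraries, fewer cells of a type and less RNA per cell cannot be told apart, and the part of these cells in the results below was not tested.

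**Figure D1:**
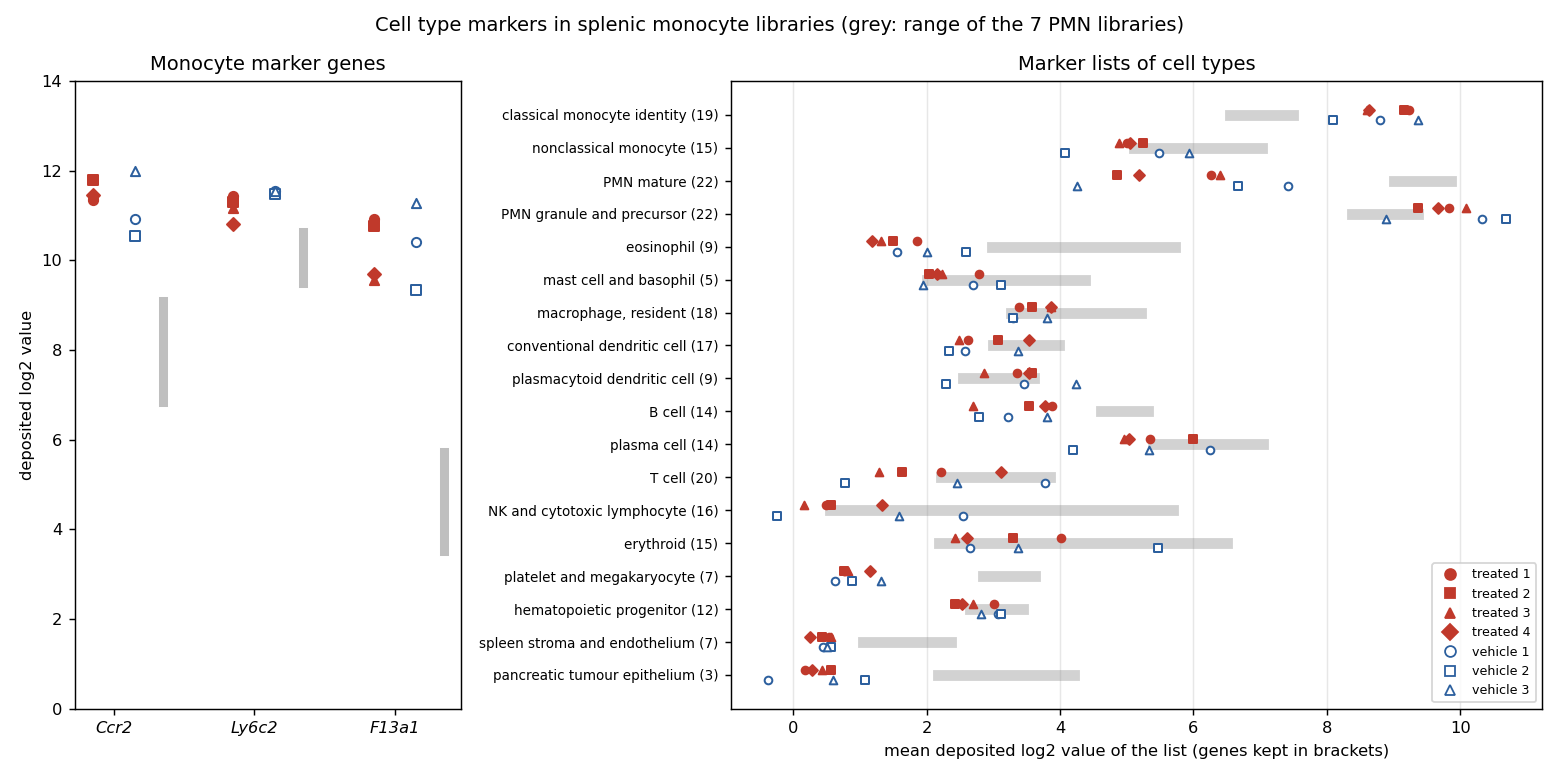
Left, deposited log2 values of Ccr2, Ly6c2 and F13a1 in each monocyte library (filled red, treated; open blue, vehicle), with the range of the 7 PMN libraries as a grey bar. Right, the mean deposited log2 value of each marker list per library. The 3 markers lie above the PMN ranges, and the classical monocyte list (8.60 to 9.23 treated, 8.09 to 9.36 vehicle) lies above its PMN range of 6.55 to 7.49.

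The vehicle libraries differed among themselves more than the treated ones. The median standard deviation of a gene was 0.199 in treated and 0.331 in vehicle libraries, and 68.3% of genes had a wider range in vehicle. Correlations over the kept genes were 0.973 to 0.984 between treated libraries and 0.913 to 0.963 between vehicle libraries. The first principal component of the 7 libraries held 48.9% of the variance. Its scores were -9.22, 28.9, -11.8 and 21.5 in treated libraries, against -31.2, -60.1 and 61.9 in vehicle libraries, so vehicle libraries 2 and 3 formed its ends. At the end of vehicle library 2 were neutrophil genes such as Mmp9 (gelatinase B), Retnlg, Ly6g and Mmp25. All of these were highest in vehicle library 1 and lowest in vehicle library 3. For Mmp9 the values were 9.55, 8.51 and 4.04 in vehicle libraries 1, 2 and 3. At the end of vehicle library 3 were interferon-stimulated genes such as Oasl2, Ifit3, Rtp4 and Ifi211, and the lectin gene Cd209a of monocyte-derived dendritic cells.

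**Figure D2:**
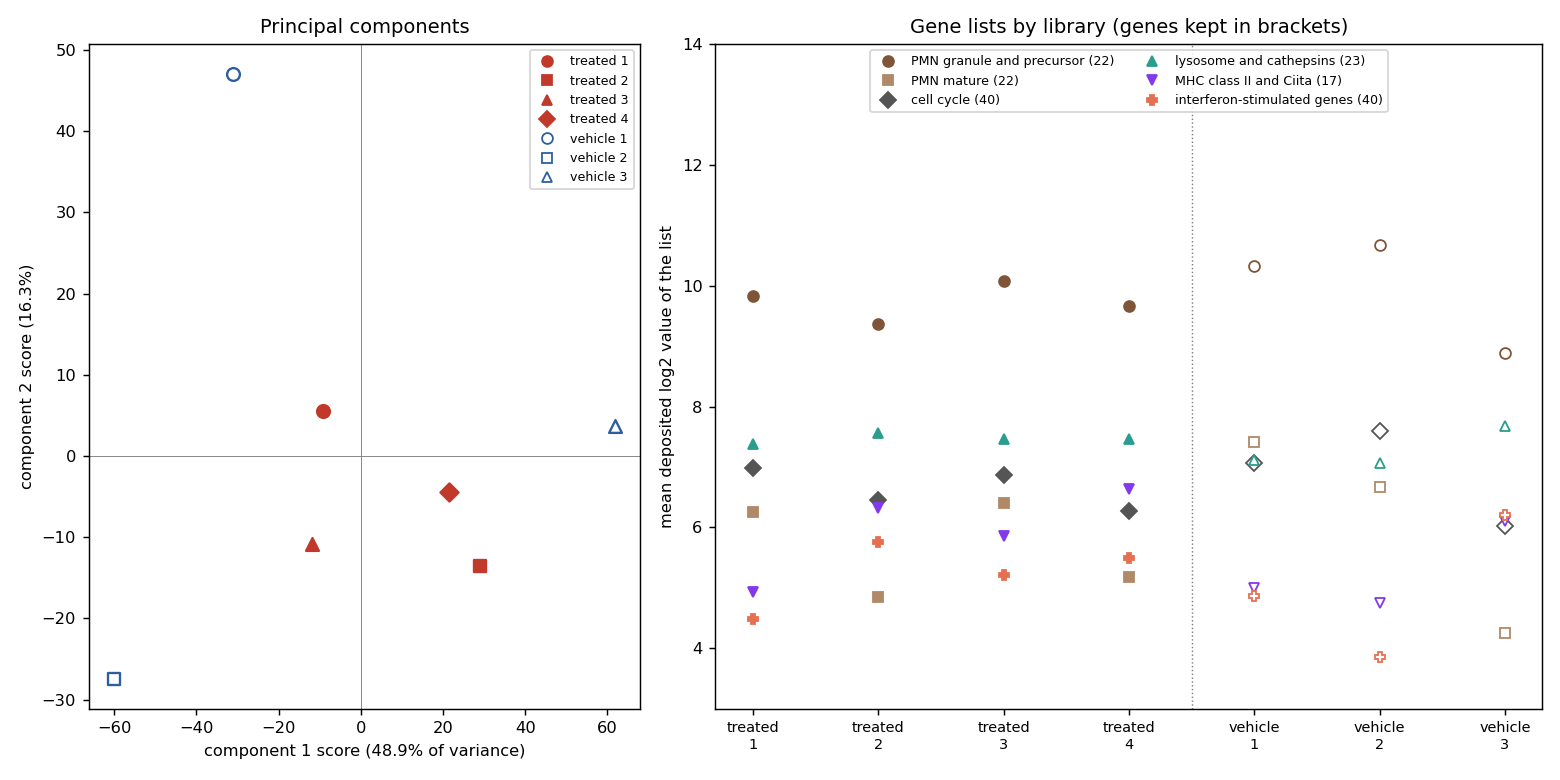
Left, scores of the 7 monocyte libraries on the first 2 principal components (48.9% and 16.3% of the variance). Right, the mean deposited log2 value of 6 gene lists in each library (filled, treated; open, vehicle). The 4 treated libraries lie between vehicle libraries 2 and 3 on component 1, and vehicle library 3 has the lowest neutrophil and cell cycle means and the highest interferon mean of the 7.

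Vehicle library 3 also stood apart in single genes. In 56 genes its value lay more than 2 log2 units outside all 6 other monocyte libraries, 17 above and 39 below. The count was 26 for vehicle library 1, 27 for vehicle library 2 and 1 to 6 for the treated libraries. Ifi202b, a DNA-binding interferon-inducible protein gene, stood at -1.78 in vehicle library 3 and between 4.59 and 7.29 in the other 6. Ctse (cathepsin E) stood at 4.49 against 7.89 to 8.36, and Hebp1 (heme-binding protein 1) at 1.07 against 4.72 to 5.45. In the other direction, Ifi206 stood at 5.20 against -2.25 to 0.14, Trim12a at 5.01 against -0.12 to 0.63 and Olfml2b at 4.62 against -1.35 to 0.55. These single genes are given as examples after their values were seen. The same genes marked the PMN library with the same number: 36 of the 56 also lay more than 2 units outside all other PMN libraries, in the same direction, in PMN vehicle library 3. Ifi202b was at -3.32 there and at 3.60 to 4.20 in the other PMN libraries, and Olfml2b at 6.76 against -3.78 to -2.22. For vehicle libraries 1 and 2, 10 of 26 and 10 of 27 genes were shared with the PMN library of the same number, and no library shared more than 1 such gene with a PMN library of another number. Of the 56 genes 14 are pseudogenes, whose reads can be split with their parent genes, and Ifi202b, Ifi206 and the Trim genes belong to families of close copies. The labels do not say whether monocytes and PMN of a number came from 1 mouse. Below, a named difference or list median that moved by more than 1.5 times or changed sign without vehicle library 3 is therefore followed by its value without it. Leaving out another library can move a difference the opposite way. For some genes the range over all single omissions is therefore given too.

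With all 7 libraries no gene passed the threshold: 0 of 13968 (0.0%) had an adjusted p under 0.05 in the limma test with Benjamini-Hochberg adjustment, and the smallest adjusted p was 0.996. At an unadjusted p under 0.05 there were 171 genes with a positive difference (1.22%) and 164 with a negative one (1.17%), 335 in all (2.4%). That share is below the one such a threshold gives by chance. The treated and vehicle values did not overlap in 471 genes (3.37%), of which 205 (1.47%) were higher and 266 (1.9%) lower in all treated libraries. With only 35 ways to split 7 libraries into 4 and 3, a lack of overlap in single genes also arises by chance. The median difference over all genes was -0.015, and 47.2% of genes had a difference above 0. The precision of the comparison is given by its intervals: the median distance from the estimate to either end was 0.478. For 72.4% of genes the whole 95% interval lay within 1 unit of 0. Among the 8207 genes with a mean of at least 4 this share was 86.6%. The fit assumes the same spread of a gene in monocyte and PMN libraries of both treatments. Yet the median standard deviation of a gene was 0.331 in vehicle and 0.199 in treated monocytes. For genes with scattered vehicle values, the intervals can therefore be too narrow and the p-values too small. Differences of 1 unit or more were estimated for 264 genes (1.89%), while 31.5% of genes spanned 1 unit or more among the vehicle libraries alone.

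The count turned on vehicle library 3. Without it, 2984 genes (21.4%) had an unadjusted p under 0.05, and 426 (3.05%) an adjusted p under 0.1, 211 positive (1.51%) and 215 negative (1.54%), but 0 had one under 0.05 (smallest adjusted p 0.0913, limma), and 50.1% of differences lay above 0. Leaving out treated library 4 gave 197 genes at an unadjusted p under 0.05, and the other 5 omissions gave 249 to 421, with 0 past the adjusted threshold each time. With weights for library quality estimated gene by gene, which set vehicle library 3 at 0.211 and vehicle library 1 at 4.27, 208 genes (1.49%) passed an adjusted p of 0.05, 117 positive (0.838%) and 91 negative (0.651%). Weights estimated by REML, chosen after that result was seen, gave vehicle library 1 a weight of 2.47e-06, and 0 genes passed. Of the genes called with the first weights, 104 were among the 426 found without vehicle library 3. Both settings discount that library, so this overlap is no independent support.

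**Figure D3:**
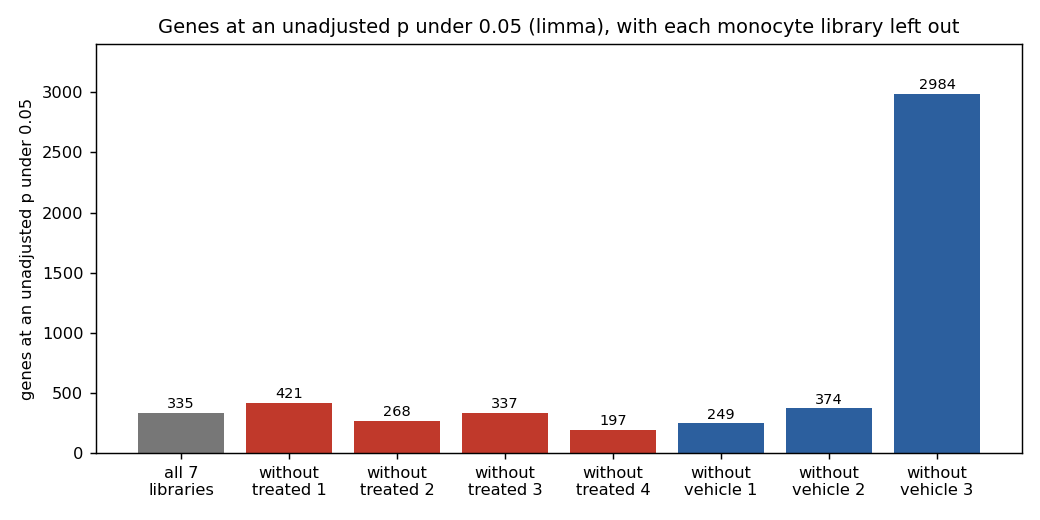
Number of genes at an unadjusted p under 0.05 (limma) with all 7 monocyte libraries and with each library left out (grey, all; red, a treated library left out; blue, a vehicle library left out). The bar without vehicle library 3 reaches 2984 genes, against 335 with all libraries and 197 to 421 without any other.

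The 24 named genes of smallest unadjusted p (0.000755 to 0.00768) are given as values, since none passed; their adjusted p was 0.996 each (limma). Of these 16 had a positive and 8 a negative difference, 19 had no overlap between groups, and all 24 kept their sign when any single library was left out. Without vehicle library 3, 9 of them had an adjusted p under 0.1, and with gene-by-gene weights 17 had one under 0.05. The genes were chosen by this p, so these counts carry no support of their own.

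Of the genes with a positive difference, Slc36a1 (ENSMUSG00000020261, chr11:55204350-55236330, plus strand) encodes a proton-coupled amino acid transporter of lysosomes. It had 6.69, 6.57, 6.49 and 6.64 in treated libraries, against 5.92, 5.91 and 6.40 in vehicle libraries, a difference of 0.52 ± 0.12 (SE; limma unadjusted p 0.00101). Every treated value lay above every vehicle value, vehicle library 3 being the nearest, and without that library the difference was 0.68 (adjusted p 0.0913). Sidt2, a lysosomal membrane protein that takes up nucleic acids, had 8.04, 8.40, 8.26 and 8.35 in treated libraries, against 7.75, 7.67 and 8.02 in vehicle libraries (0.45 ± 0.11), also with no overlap. Rab14, a small GTPase between the Golgi and endosomes, stood 0.29 ± 0.09 higher with no overlap of the groups. Wls, which carries Wnt proteins to the cell surface, had 7.25, 7.65, 7.59 and 7.92 in treated libraries, against 6.90, 7.05 and 5.98 in vehicle libraries. Here vehicle library 3 was the lowest value, and the difference of 0.96 ± 0.28 was 0.63 without it. Ddhd1, a phospholipase that acts on phosphatidic acid, differed by 0.91 ± 0.27, with treated values of 6.85 to 7.52 and vehicle values of 5.91 to 6.49.

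A further group encodes surface receptors and signalling proteins. Gpr146, a G protein-coupled receptor, had 6.06, 6.34, 5.92 and 6.13 in treated libraries, against 5.05, 5.28 and 5.58 in vehicle libraries, a difference of 0.81 ± 0.20 or 1.75-fold. Icosl, the ligand of the T cell costimulator ICOS, had 6.32, 6.53, 6.47 and 6.74 in treated libraries, against 6.06, 5.94 and 5.97 in vehicle libraries (0.52 ± 0.14). For both genes the groups did not overlap. Csf2rb (ENSMUSG00000071713, chr15:78325752-78353847, plus strand) is the common beta chain of the receptors for GM-CSF, IL-3 and IL-5. Its values were 9.34, 9.67, 9.55 and 9.35 in treated libraries, against 8.90, 9.13 and 9.05 in vehicle libraries, a difference of 0.45 ± 0.14 that was 0.46 without vehicle library 3. The neighbouring Csf2rb2, which encodes the IL-3 receptor beta chain of mice, stood at 0.66 ± 0.24 (unadjusted p 0.0164), and reads of these near-identical genes may be split between them. Rasgrp1, a Ras activator that responds to diacylglycerol, had 4.28, 5.60, 6.10 and 6.15 in treated libraries, against 3.80, 4.38 and 3.73 in vehicle libraries (1.56 ± 0.46). Treated library 1 lay among the vehicle values for this gene. Acvr2a, an activin receptor, differed by 0.73 ± 0.22, with treated library 3 (3.78) just under vehicle library 3 (3.81).

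Among the 24, Ptprd, Spon1 and Nectin1 had the largest differences. Ptprd, a receptor tyrosine phosphatase (ENSMUSG00000028399, chr4:75941238-78211961, minus strand), had 3.34, 4.40, 3.75 and 3.97 in treated libraries, against 2.44, 1.26 and -1.47 in vehicle libraries. Its difference of 3.12 ± 0.78 was 2.02 without vehicle library 3, which lay more than 2 units below every other monocyte library for this gene. Spon1, a secreted matrix protein, had 3.72, 3.80, 4.84 and 3.92 in treated libraries, against 2.36, 1.78 and 2.83 in vehicle libraries (1.75 ± 0.53). Nectin1, a cell adhesion protein, had 3.37, 3.93, 3.32 and 4.32 in treated libraries, against 2.93, 0.60 and 2.52 in vehicle libraries (1.72 ± 0.52). The groups did not overlap for any of the 3. Trim30c and Mndal, members of interferon-inducible families with close copies, stood at 1.56 ± 0.43 and 1.06 ± 0.32. Mndal had 8.03, 8.70, 8.20 and 8.66 in treated libraries, against 7.48, 6.86 and 7.66 in vehicle libraries, and Trim30c had treated values of 3.93 to 5.49 and vehicle values of 3.10 to 3.39. Setdb1, a histone H3 lysine methyltransferase, stood at 0.35 ± 0.10.

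The 8 genes with a negative difference covered varied functions. St3gal2, a sialyltransferase, had the smallest p of all 24, with 5.20, 4.98, 5.51 and 5.25 in treated libraries, against 5.70, 5.77 and 5.73 in vehicle libraries (-0.50 ± 0.11, unadjusted p 0.000755). The 3 vehicle values were close together and above all treated values, and the difference was the same without vehicle library 3 (-0.50, adjusted p 0.0947). Smarca2, an ATPase of SWI/SNF chromatin remodellers, had 6.26, 6.24, 6.28 and 6.21 in treated libraries, against 6.67, 6.58 and 6.53 in vehicle libraries (-0.34 ± 0.10). Oxr1, which protects against oxidative damage, stood at -0.36 ± 0.10 and Qprt, an enzyme that makes NAD precursors from tryptophan, at -0.86 ± 0.23, both with no overlap of groups. Ccdc88c, a Wnt pathway regulator, had 6.84, 6.41, 6.75 and 6.58 in treated libraries, against 7.30, 6.94 and 7.80 in vehicle libraries (-0.71 ± 0.22). The other 3 were Nfe2, a blood cell transcription factor (-0.42 ± 0.12), the protease inhibitor gene Slpi (-0.60 ± 0.18) and the noncoding RNA Mirt1 (-1.03 ± 0.32). Slpi had 5.73, 5.41, 5.40 and 5.12 in treated libraries, against 6.49, 5.70 and 5.85 in vehicle libraries and 9.34 to 9.68 in PMN. Mirt1 ran from 2.38 to 3.80 in treated and from 3.75 to 4.70 in vehicle libraries, with 7.79 to 8.42 in PMN. Of the 8 genes, Qprt, Smarca2, Nfe2, Slpi and Mirt1 had higher values in every PMN library than in any monocyte library, as had Gpr146, Sidt2 and Icosl among the genes with a positive difference. The part of neutrophil-lineage cells in these values was not tested.

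**Figure D4:**
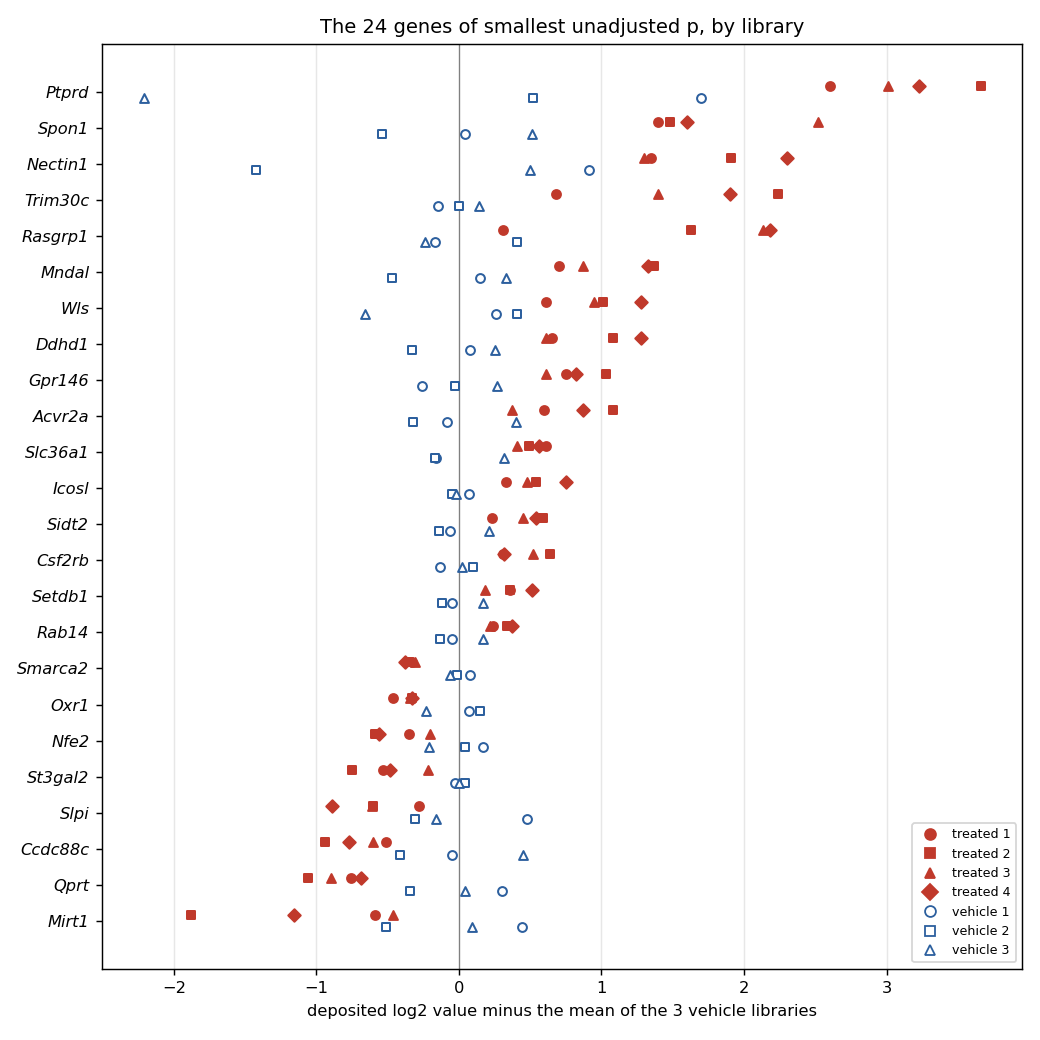
Deposited log2 value minus the vehicle mean for the 24 named genes of smallest unadjusted p, with 1 point per library (filled red, treated; open blue, vehicle), sorted by difference. Ptprd, Spon1 and Nectin1 have the largest differences, and Ptprd and Nectin1 have the widest vehicle ranges. St3gal2 and Smarca2 have tight vehicle values, and none of the 24 passed the adjusted threshold.

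The genes of the pathway that the drug blocks had mostly narrow intervals, under the assumption of equal spread described above. Pik3cd (ENSMUSG00000039936, chr4:149649168-149702571, minus strand) had 8.49, 8.83, 8.51 and 8.69 in treated libraries, against 8.24, 8.06 and 9.01 in vehicle libraries. Its difference was 0.20 ± 0.20 (95% interval -0.25 to 0.64), and the treated values lay inside the vehicle range. Without vehicle library 3, the highest of the 7, the difference was 0.49, and over all single omissions it ran from 0.01 to 0.49. Pik3cg, encoding the p110γ subunit that answers to chemokine receptors, differed by -0.06 (-0.38 to 0.27). Pik3ca and Pik3cb, which encode the widely expressed p110α and p110β, differed by 0.01 (-0.32 to 0.33) and -0.25 (-0.80 to 0.30), and these 2 and Pik3cg took the other sign under some of the other settings. Leaving out vehicle library 3 gave differences of 0.08 for Pik3cg, 0.22 for Pik3ca and -0.63 for Pik3cb. In the list of 13 kept PI3K subunits and adaptors, 0 passed, 8 were above 0, and 12 intervals lay within 1 unit of 0. The median was 0.01 (0.18 without vehicle library 3, -0.04 without vehicle library 1 and -0.06 without vehicle library 2). The member with an unadjusted p under 0.05 was Pik3ap1, the adaptor BCAP that links PI3K to B cell and Toll-like receptors. It had 5.66, 5.54, 6.04 and 5.77 in treated libraries, against 6.07, 6.46 and 6.13 in vehicle libraries, a difference of -0.47 (-0.79 to -0.14; unadjusted p 0.00868) with no overlap.

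Downstream, 0 of 23 genes of lipid phosphatases, Akt and mTOR passed, with a median of -0.02 (0.01 without vehicle library 3), and all 23 intervals lay within 1 unit of 0. Mtor, the kinase of both mTOR complexes, had 4.93, 5.08, 4.97 and 4.94 in treated libraries, against 5.11, 5.32 and 5.17 in vehicle libraries (-0.22, interval -0.47 to 0.02). Tsc2, which restrains mTOR, differed by -0.16 (-0.34 to 0.01), also with no overlap of the groups. Among 27 FoxO factors and targets the median was -0.01, with 13 above 0 and 0 at an unadjusted p under 0.05. Bcl2l11, the pro-apoptotic BIM, had 5.24, 5.94, 5.81 and 5.68 in treated libraries, against 4.87, 4.65 and 5.97 in vehicle libraries (0.50, interval -0.13 to 1.13), and Sesn1, a stress-induced inhibitor of mTOR, differed by 0.42 (-0.14 to 0.97). In both, vehicle library 3 stood above at least 3 of the 4 treated libraries, and the differences without it were 0.90 and 0.73. Over all single omissions Bcl2l11 ran from 0.25 to 0.90 and Sesn1 from 0.23 to 0.73. The FoxO median was 0.21 without vehicle library 3 and -0.20 without vehicle library 2.

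**Figure D5:**
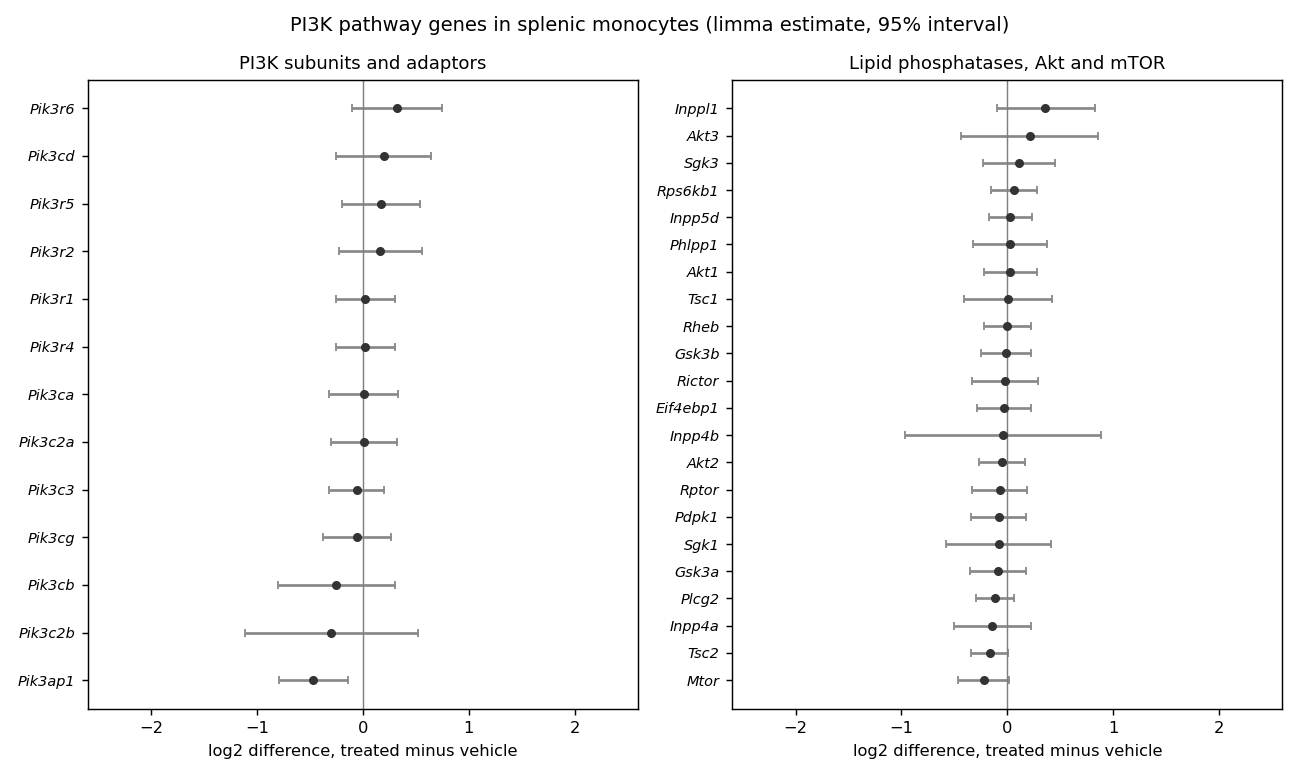
Log2 difference, treated minus vehicle, with its 95% interval (limma) for 13 PI3K subunits and adaptors (left) and genes of lipid phosphatases, Akt and mTOR (right). All plotted intervals but that of Pik3c2b lie within 1 unit of 0, and that of Pik3ap1 (-0.79 to -0.14) lies wholly below 0.

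Genes by which monocytes sense and answer growth factors and microbes had positive list medians that turned on single vehicle libraries. Of 24 growth factor and cytokine receptors 19 were above 0, with a median of 0.22 (0.00 without vehicle library 2 and 0.43 without vehicle library 3), 0 passed, and the groups did not overlap in 3 of the 24, beside 3.37% of all genes. These were Csf2rb, Csf2rb2 and Il4ra, the IL-4 receptor alpha chain, with 7.61, 7.31, 7.32 and 7.01 in treated libraries, against 6.73, 6.93 and 7.0 in vehicle libraries (0.42 ± 0.24). In the list of 23 feedback regulators of cytokine and NF-kB signalling 20 were above 0, with a median of 0.32 (0.00 without vehicle library 2 and 0.60 without vehicle library 3) and 0 passing. Socs3, which shuts off receptors signalling through STAT3, had 7.22, 6.96, 7.16 and 6.92 in treated libraries, against 6.06, 6.29 and 6.77 in vehicle libraries, with no overlap (0.69 ± 0.26, unadjusted p 0.0187). Without vehicle library 3 it was 0.89. Among 19 immediate early genes the median was 0.04 (-0.12 without vehicle library 2 and 0.41 without vehicle library 3), and Nr4a2, a nuclear receptor, stood at -1.11 ± 0.49 with treated values of -1.16 to -0.21 and vehicle values of 0.13 to 0.87. Medians were 0.22 for 18 Toll-like receptors and adaptors, 0.11 for 10 Fc receptors, 0.16 for 25 lectin, Trem and inhibitory receptors and 0.22 for 12 complement genes, with 0 members past the threshold in any of the 4 lists. Without vehicle library 3 these medians were 0.36, 0.33, 0.22 and -0.06, the last with 5 of 12 complement genes above 0 in place of 8. Without vehicle library 2 they were 0.06, 0.05, 0.03 and 0.30. Fcgr2b, the inhibitory Fc receptor, had 8.86, 9.74, 9.74 and 10.24 in treated libraries, against 8.35, 9.11 and 8.89 in vehicle libraries (0.86, interval -0.55 to 2.27). Sirpb1a, an activating receptor with close copies, stood at 0.91 ± 0.40 (1.42 without vehicle library 3), and Hcst, the adaptor DAP10 through which receptors reach PI3K, at -0.59 ± 0.25 (-0.94 without it).

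Of 23 chemokine receptors and adhesion molecules 13 were above 0 (median 0.05, or 0.31 without vehicle library 3) and 0 passed. Over all single omissions this median ran from -0.05 to 0.31. Itgb2, the beta chain of leukocyte integrins, had 9.88, 9.81, 9.98 and 10.05 in treated libraries, against 10.43, 10.22 and 10.09 in vehicle libraries, with no overlap (-0.32 ± 0.12, unadjusted p 0.0223). Spn, the sialoglycoprotein CD43 that marks nonclassical monocytes, had 8.35, 8.23, 8.54 and 8.27 in treated libraries, against 8.93, 8.82 and 8.91 in vehicle libraries. Its groups did not overlap (-0.54 ± 0.21, unadjusted p 0.0218), while the median of the 15 nonclassical monocyte genes was 0.09 (0.25 without vehicle library 3 and -0.57 without vehicle library 2). Among 16 effectors of myeloid suppression the median was 0.06 (0.29 without vehicle library 2), and Hif1a, the oxygen-sensing transcription factor, stood at 0.31 ± 0.17. Of 19 inflammatory mediators 11 were above 0 (median 0.13), with Tgfb1 at 0.49 ± 0.32 and the IL-1 antagonist Il1rn at 0.53 ± 0.33. These 2 genes stood at 0.79 and 0.33 without vehicle library 3. Of 10 chemokines the median was 0.11 (0.58 without vehicle library 3 and -0.19 without vehicle library 2), with Cxcl16 at 0.73 ± 0.51 and Ccl4 at -0.86 ± 0.51 (-0.43 without vehicle library 3). The 10 genes of the phagocyte NADPH oxidase had a median of -0.02 (-0.28 without vehicle library 3, 0.07 without vehicle library 1 and 0.05 without vehicle library 2). The 23 monocyte and myeloid transcription factors had one of 0.24 (0.60 without vehicle library 3 and 0.05 without vehicle library 2). Among them Irf5 stood at 0.41 ± 0.29 and Runx1 at 0.39 ± 0.28, or 0.79 and 0.25 without vehicle library 3. Over all single omissions Irf5 ran from 0.09 to 0.79 and Runx1 from 0.24 to 0.67. None of these lists had a member past the threshold.

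Antigen presentation through MHC class II had the largest positive list median, 0.73 over 17 genes, 15 of them above 0 and 0 past the threshold, beside -0.02 over all genes. The values split within both groups. Ciita, the master regulator of class II genes, had 4.13, 7.32, 6.62 and 7.55 in treated libraries, against 4.05, 4.49 and 6.38 in vehicle libraries (1.43, interval -0.29 to 3.16). H2-Aa, a class II alpha chain, had 7.78, 10.75, 10.54 and 11.49 in treated libraries, against 8.33, 7.97 and 10.04 in vehicle libraries (1.36, interval -0.43 to 3.15). Treated libraries 2, 3 and 4 and vehicle library 3 were high and treated library 1 and vehicle libraries 1 and 2 low for both. Ciita and H2-Aa were picked for this after their values were seen. H2-Eb2 stood at 1.0 ± 0.44 (unadjusted p 0.0398) and H2-DMb2, which helps load peptides, at 0.73 ± 0.39 (1.12 without vehicle library 3). The list median was 1.17 without vehicle library 3 and 0.43 without vehicle library 2. Dendritic cell genes, which include class II-rich cells, averaged 2.62, 3.07, 2.49 and 3.53 in treated libraries, against 2.58, 2.34 and 3.37 in vehicle libraries, and B cell genes 3.88, 3.53, 2.70 and 3.78 against 3.22, 2.79 and 3.81. The part of such cells in the class II values was not tested. The 22 genes of MHC class I presentation had a median of 0.04 (0.20 without vehicle library 3 and -0.24 without vehicle library 2), and 18 of their intervals lay within 1 unit of 0.

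The mean level of interferon-stimulated genes ranged more widely over the vehicle than over the treated libraries. The mean of the 40 kept genes was 4.48, 5.76, 5.21 and 5.49 in treated libraries, against 4.87, 3.85 and 6.20 in vehicle libraries. Of the 40, 30 were above 0 with a median of 0.28, and 0 passed. The median was 0.87 without vehicle library 3 and -0.22 without vehicle library 2, so its sign turned on 1 library. Gbp7, an interferon-inducible GTPase, had 5.97, 7.06, 6.58 and 6.55 in treated libraries, against 5.47, 5.59 and 6.04 in vehicle libraries (0.84 ± 0.29, unadjusted p 0.0123). Treated library 1 lay just under vehicle library 3 in that gene. Ifit2, which blocks translation of viral RNA, stood at -0.69 ± 0.36. Such genes answer to the factor ISGF3, which binds a repeated element upstream of their start. The upstream sequences of the 4 members of widest range that have an entry in the RefSeq promoter table (GRCm38.p6) are shown, since their values span the libraries most. Each is 250 bases before the annotated start, 5′ to 3′ on the strand of the gene. Capitals mark matches to GAAANNGAAA on either strand (TTTCNNTTTC on the opposite one), and neighbouring matches can overlap.
Ifit3b (chr19:34607707-34607956, plus strand): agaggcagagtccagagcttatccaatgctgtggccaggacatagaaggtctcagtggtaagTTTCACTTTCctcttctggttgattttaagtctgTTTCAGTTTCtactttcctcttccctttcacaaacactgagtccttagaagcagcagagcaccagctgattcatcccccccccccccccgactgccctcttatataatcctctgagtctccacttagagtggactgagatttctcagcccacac
Oasl2 (chr5:114896684-114896933, plus strand): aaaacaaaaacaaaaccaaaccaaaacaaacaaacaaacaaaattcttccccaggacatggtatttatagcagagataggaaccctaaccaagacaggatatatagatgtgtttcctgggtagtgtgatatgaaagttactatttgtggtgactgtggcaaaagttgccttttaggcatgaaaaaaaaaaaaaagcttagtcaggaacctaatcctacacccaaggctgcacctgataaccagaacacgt
Ifit3 (chr19:34583279-34583528, plus strand): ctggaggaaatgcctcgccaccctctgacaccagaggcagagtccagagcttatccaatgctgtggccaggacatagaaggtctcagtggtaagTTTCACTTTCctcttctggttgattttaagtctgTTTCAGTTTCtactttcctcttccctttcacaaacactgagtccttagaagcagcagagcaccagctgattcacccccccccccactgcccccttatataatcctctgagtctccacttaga
Isg15 (chr4:156200819-156201068, minus strand): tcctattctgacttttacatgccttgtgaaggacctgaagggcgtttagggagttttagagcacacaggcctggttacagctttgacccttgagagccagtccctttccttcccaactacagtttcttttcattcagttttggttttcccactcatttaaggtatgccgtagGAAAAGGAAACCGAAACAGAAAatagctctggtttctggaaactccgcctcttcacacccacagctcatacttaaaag

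Isg15, a ubiquitin-like protein gene, held 3 overlapping matches, Ifit3 and Ifit3b 2 each and Oasl2 none in these letters. The element occurred in 17 of the 30 list members with an entry and in 978 of all 32851 promoters of the same length (2.98%). Such a match is a description of the letters and not a binding site. The windows of Ifit3 and Ifit3b share an identical stretch of 169 bases, and their transcripts are near-identical too, so their values are uncertain as single genes. Ifit3 had 1.77, 4.17, 3.57 and 3.84 in treated libraries, against 3.32, 1.61 and 6.25 in vehicle libraries. Isg15 had 3.54, 5.62, 4.57 and 5.12 in treated libraries, against 3.74, 2.73 and 6.16 in vehicle libraries. Oasl2, of the oligoadenylate synthetase-like family, had 4.16, 6.07, 5.50 and 5.86 in treated libraries, against 4.36, 2.87 and 7.55 in vehicle libraries. For each of the 3 the highest and the lowest value of all 7 libraries were vehicle libraries 3 and 2. The median range over the 7 libraries was 2.67 in the 17 members with a match and 1.81 in the 13 without. Whether the element bears on the range was not tested. Ifit3 and Ifit3b both count among the 17 although their windows share 169 bases.

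Among 23 lysosomal genes and cathepsins 20 were above 0 (median 0.19) and 0 passed. Lamp1, a lysosomal membrane glycoprotein, had 10.35, 10.56, 10.42 and 10.36 in treated libraries, against 9.89, 9.77 and 10.50 in vehicle libraries (0.37, interval -0.02 to 0.76), and the protease gene Ctsh stood at 0.34 ± 0.20. Without vehicle library 3, which had the highest list mean (7.68), the median was 0.45, with Lamp1 at 0.59 and Ctsh at 0.61. Without vehicle library 2 the median was 0.02. Over all single omissions Lamp1 ran from 0.23 to 0.59 and Ctsh from 0.13 to 0.61. In the list of 28 genes of glycolysis and hypoxia 5 were above 0 (median -0.18, or -0.36 without vehicle library 3 and -0.01 without vehicle library 2). Hk2, the hexokinase that starts glycolysis in activated cells, had 5.48, 5.67, 5.71 and 5.72 in treated libraries, against 5.80, 5.99 and 6.17 in vehicle libraries, with no overlap (-0.35 ± 0.12, unadjusted p 0.0134). Pfkfb3, which raises phosphofructokinase activity, stood at -0.38 ± 0.17. All 26 genes of oxidative phosphorylation had intervals within 1 unit of 0 (median 0.01, or -0.04 without vehicle library 3), as had all 36 ribosomal proteins (median -0.01, or 0.07 without it). The 13 mitochondrially encoded genes were all above 0, with a median of 0.25 (0.46 without vehicle library 3), mt-Nd3 at 0.80 ± 0.34 (1.21 without it) and 0 past the threshold. Medians were 0.01 for 24 genes of fatty acid oxidation and lipid storage, 0.15 for 28 of cholesterol synthesis, 0.17 for 24 chaperones and -0.09 for 18 of the ATF4 amino acid response, each with 0 past the threshold. These 4 medians were 0.17, 0.14, 0.14 and -0.30 without vehicle library 3, and 0.00, 0.27, 0.22 and 0.01 without vehicle library 2. The chaperone gene Dnajb9 stood at 0.38 ± 0.16 and Trib3, an ATF4 target that inhibits Akt, at -0.60 ± 0.25. Trib3 had -0.39, -0.35, -0.40 and -0.58 in treated libraries, against 0.07, 0.47 and -0.02 in vehicle libraries, without overlap. Of 9 noncoding and structural RNAs 5 were above 0 (median 0.26), with the signal recognition particle RNA gene Rn7s1 at 1.09 ± 0.47, which shares reads with its copy Rn7s2.

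Cell cycle genes had differences of 1 sign in all 40 of 40 members, all below 0, with a median of -0.25 and 0 past the threshold. Their mean was 6.98, 6.46, 6.87 and 6.27 in treated libraries, against 7.07, 7.60 and 6.03 in vehicle libraries and 4.19 to 4.85 in PMN. The treated values lay inside the vehicle range, and the median was -0.71 without vehicle library 3 and 0.12 without vehicle library 2. Mcm6, a subunit of the replication helicase, had 6.86, 6.61, 7.02 and 6.66 in treated libraries, against 7.13, 7.84 and 6.52 in vehicle libraries (-0.38 ± 0.27, or -0.70 without vehicle library 3). Over all single omissions Mcm6 ran from -0.70 to -0.04. In both neutrophil lists, as in the cell cycle mean, vehicle library 3 was lowest and vehicle libraries 1 and 2 stood above all treated libraries. Vehicle library 1 was highest in the mature list (7.42), and vehicle library 2 in the granule and precursor list (10.68). The 22 mature neutrophil genes had a median of -0.33 (-1.12 without vehicle library 3 and 0.16 without vehicle library 1), and the 22 granule and precursor genes one of -0.18 (-0.88 without vehicle library 3, 0.24 without vehicle library 2). Retnlg, a resistin-like protein of neutrophils, had 8.02, 5.10, 7.02 and 5.11 in treated libraries, against 10, 8.69 and 5.01 in vehicle libraries (-1.59, interval -3.72 to 0.54, or -3.03 without vehicle library 3). Mpo, the myeloperoxidase of granulocyte-monocyte precursors, had 9.42, 9.63, 9.49 and 9.0 in treated libraries, against 10.08, 11.29 and 9.52 in vehicle libraries (-0.91, interval -2.39 to 0.57), and Myb, a progenitor transcription factor, stood at -0.50 ± 0.37 (-1.10 without vehicle library 3). Over all single omissions Retnlg ran from -3.03 to -0.54, Mpo from -1.30 to -0.42 and Myb from -1.10 to -0.04.

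The clock list, which holds genes that follow the time of day, had a lower median than all genes: -0.29 over 12 genes of the repressor and output arm, 4 above 0 and 0 past the threshold. Nr1d1, the clock repressor REV-ERBα, had 0.86, 1.25, 1.12 and 1.33 in treated libraries, against 1.70, 1.68 and 2.56 in vehicle libraries, with no overlap (-0.84 ± 0.27, unadjusted p 0.00797, or -0.55 without vehicle library 3). Bhlhe41, another clock repressor, had -2.36, -1.48, -2.88 and -1.24 in treated libraries, against 0.46, -1.13 and -0.56 in vehicle libraries (-1.58 ± 0.75), and its groups did not overlap either. The 7 genes of the activator arm had a median of 0.10 (0.26 without vehicle library 3 and 0.02 without vehicle library 2). Clock stood at 0.36 ± 0.29 (0.75 without vehicle library 3), and over all single omissions it ran from 0.12 to 0.75. The labels give no hour of sampling, so time of day and treatment cannot be told apart.

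Whether the treatment differed between monocytes and PMN was tested as the difference of the effects in the same fit. Of 13968 genes 0 (0.0%) passed at an adjusted p of 0.05 (smallest adjusted p 1.0, limma), and 269 (1.93%) had an unadjusted p under 0.05. That count was 2143 without monocyte vehicle library 3, 1904 with gene-by-gene weights, 160 without vehicle library 1 and 161 without treated library 4, with 0 past the adjusted threshold each time. No gene above can therefore be called particular to monocytes. With monocytes and PMN of the same treatment and number joined as a block, 334 genes had an unadjusted p under 0.05 and 0 an adjusted one. St3gal2 had a difference of effects of -0.56 (unadjusted p 0.00407), Oxr1 one of -0.46 (0.00664) and Icosl one of 0.60 (0.0109), while Slc36a1 (0.08) and Csf2rb (0.17) were closer to 0.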

How the data were processed

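The 7 monocyte and 7 PMN libraries were read as deposited. The authors deposited log2 values that they named log2 RPKM; the submitters' processing notes name mm10 as the build and TopHat2, STAR and limma as tools, while versions and the role of each are not given in the sources used here. Per the labels' protocols, libraries were made with 1 of 2 kits, and which library had which is not given, so kit and treatment cannot be told apart. The sums of the unlogged values were nearly equal in all monocyte libraries (1429080 to 1429460), so depth and counts could not be recovered and no interval for counting error is given. Symbols were taken from GENCODE M21 (GRCm38) for 13886 genes; 245 had none. Sex chromosome genes were not analysed here. A few genes of the lists are not reported by name here.

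Genes were kept at a value of at least 0 in at least 3 of 14 libraries and tested with limma 3.58.1 (R 4.3.3; 4 groups in 1 fit, eBayes with the mean trend, two-sided, Benjamini-Hochberg over 13968 genes, threshold 0.05). The pipeline was tested on simulated data. The 50 gene lists are described by counts and medians without a set test, and the lists, rules and named genes were chosen with earlier results of these data known. Named genes are the 24 of smallest unadjusted p with a group mean of at least 1 (predicted models, small RNAs, pseudogenes and antigen receptor segments left out), up to 2 members of smallest p per list, the highest members of cell type lists, the 4 class I catalytic subunit genes and the 3 markers. Python 3.11.15 with matplotlib 3.10.9 drew the plots.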

Additional observations from a re-analysis of the deposited data

Results flagged for a closer look

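Within the 4 treated libraries, 1 library lay far from the other 3 in 4 of the 107 genes examined, by the gap to the nearest value as a share of the whole range. The limit is the critical value of Dixon's test for 4 values at the 95% level, chance flags about 1 in 20 groups, and groups of 3 are not examined. The share was 0.894 for treated library 1 in Oxr1 (7.45 against 7.57, 7.58 and 7.58), 0.851 for treated library 3 in Cr2, a complement receptor of B cells, 0.868 for treated library 2 in the cholesterol synthesis gene Mvd and 0.92 for treated library 4 in mt-Nd4l.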

How the results depend on the processing

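The number of genes past the adjusted threshold in the treated against vehicle comparison was 0 without a filter, with a stricter filter (a value of at least 2), with log2 of the value plus 1, after quantile normalization or centring, with eBayes without the trend or robust, with the 7 monocyte libraries alone, at a threshold of 0.1 and without any single library. Gene-by-gene array quality weights gave 208 and 3695 at an unadjusted p under 0.05, and 1904 for the difference of effects; the cause was not tested. Leaving out 1 library gave 197 to 2984 genes at an unadjusted p under 0.05 and 160 to 2143 for the difference of effects. Same-numbered treated and vehicle monocytes did not deviate together (correlations of 0.256, -0.403 and -0.37), so the numbers were not used as pairs. Same-numbered monocytes and PMN had correlations of -0.134 to 0.45 in treated and 0.0855 to 0.457 in vehicle libraries. The replicate block gave 0 genes past the threshold (304 at an unadjusted p under 0.05 as a factor, 332 as a correlation of 0.107 that joins monocytes and PMN of a number; 270 and 334 for the difference of effects). The 107 genes followed through all settings do not include every gene named above. Without vehicle library 3, Camp (0.08), Ngp (0.02) and Ifit3 (-0.39), which were not followed, took the other sign at -0.47, -0.36 and 0.87. Of the 107 genes 4 took the other sign under some setting: Pik3ca was -0.05 and F13a1 0.03 with the block as a factor, and Pik3cg was 0.07 and F13a1 0.27 with REML weights. Without 1 library, Pik3ca ran from -0.14 to 0.22, Pik3cb from -0.63 to 0.04, Pik3cg from -0.20 to 0.08 and F13a1 from -0.61 to 0.36. Pik3cd ran from 0.01 to 0.49. List medians moved by more than the spread between libraries in 22 of 50 lists, most often without vehicle library 3. Depth being unknown, the 3 vehicle libraries and their spread limit what could be detected.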

Other observations

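The 12 genes of smallest p without vehicle library 3 had adjusted p-values of 0.0913 each (limma). They were chosen for that p, and the 4 given here were picked from them after their values were seen. Slc29a3, a nucleoside transporter of lysosomes, had 5.83, 6.44, 5.89 and 5.89 in treated libraries, against 4.77 and 4.72 in vehicle libraries 1 and 2 and 6.31 in vehicle library 3. Its difference was 1.27 without vehicle library 3 and 0.75 with it. Slc38a9, which reports lysosomal arginine to mTOR, had 4.75, 4.64, 4.73 and 5.08 in treated libraries, against 4.17, 3.76 and 5.35 in vehicle libraries (0.84 without vehicle library 3, 0.37 with it). Lipa, the lysosomal acid lipase, had 6.54, 6.48, 6.67 and 6.43 in treated libraries, against 5.86, 5.96 and 7.19 in vehicle libraries (0.61 and 0.19). Mgll, which splits monoacylglycerols, had 2.86, 2.45, 3.58 and 3.32 in treated libraries, against 4.31, 4.71 and 0.91 in vehicle libraries (-1.46 and -0.26). In these genes the treated libraries lay between vehicle library 3 and the other vehicle libraries, apart from Slc29a3, in which treated library 2 exceeded vehicle library 3.

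Lists of other cell types that were not described above had 0 members past the threshold. Their medians were -0.50 for 9 eosinophil genes, -0.34 for 5 of mast cells and basophils, 0.20 for 18 of resident macrophages, -0.04 for 9 of plasmacytoid dendritic cells, 0.07 for 14 of plasma cells, -0.13 for 7 of platelets, -0.35 for 12 of progenitors and 0.00 for 7 of spleen stroma. Several signs turned on 1 library: plasmacytoid dendritic cell genes had 0.60 without vehicle library 3 and -0.35 without vehicle library 2, plasma cell genes 0.39 without vehicle library 1 and -0.56 without vehicle library 2, platelet genes 0.20 without vehicle library 3, stroma genes 0.13 without vehicle library 3, and mast cell and basophil genes -0.71 without vehicle library 3 and 0.01 without vehicle library 2. Without vehicle library 3, resident macrophage genes had 0.34 and plasma cell genes 0.28. Itgb3, an integrin beta chain of the platelet list, stood at -0.61 with no overlap of the groups, and ran from 4.77 to 6.12 in PMN, above every monocyte library. In the same list 3 of 7 genes were above 0, among them Itga2b at 0.47 (0.81 without vehicle library 3). Prdm1, the plasma cell factor BLIMP1, stood at 0.69.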
